A study of Mus musculus with 12 samples.

Results

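Cells that lacked the serotonergic reporter were compared between a rostral piece of the embryonic neural tube, reaching from the mesencephalic to the pontine flexure, and a caudal piece, reaching from there to the spinal cord. The comparison used 6 of the 12 arrays of the study: 3 of rostral YFP-negative cells (R-) and 3 of caudal YFP-negative cells (C-). They were chosen by their labels, not by any measured value, and every probe set with one gene symbol in the probe table was eligible. That gave 34945 of 45101 probe sets and 18193 genes, of which 12845 genes passed a filter on dim signals and were tested.

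All embryos were ePet-EYFP mice at E12.5. This transgene places yellow fluorescent protein (YFP) under a Pet-1 enhancer that is active in serotonin neurons. Neural tubes were cut at the mesencephalic flexure, the pontine flexure and the spinal cord, which gave a rostral and a caudal piece. Cells of each piece were dissociated and sorted by YFP, and 200000 cells per array went into RNA extraction. The labels name R- and C- as non-serotonergic cells, so each population holds every other sorted cell of its piece, including blood, vessel and covering tissue where these were not dissected away. The YFP-positive populations of the same pieces, R+ and C+, also had 3 arrays each. They enter below only to share the estimate of the spread and for one comparison of regional differences. The labels call the replicates biological without naming litters or the number of embryos pooled, so each p-value reflects the spread among these particular samples, which may be technical in part.

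Position along the head-to-tail axis of the neural tube is set by transcription factors. Otx2 marks forebrain and midbrain, Gbx2 marks the anterior hindbrain, and the boundary between their domains forms the isthmic organizer, a signalling centre that keeps En1, En2, Pax2, Pax5 and Fgf8 expressed nearby. Behind it, Hox genes of the A, B, C and D clusters switch on in overlapping domains whose front edges lie further back for higher paralogue numbers, under the influence of retinoic acid and with Meis and Pbx proteins as DNA-binding partners. Within each segment, dorsal and ventral progenitor domains then give rise to distinct classes of neurons.

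The sequences just upstream of 5 of the genes described below are shown because 3 of them are Hox genes higher in C-, and En1 and Tal2 are patterning and neuronal fate genes higher in R-. Each is the 250 bases before the gene's start in the gene's own orientation, 5′ to 3′, from RefSeq on GRCm38.p6. A window was listed for 76 of the 106 called genes that are named by the rules of the comparison. Hoxa5 lies at chr6:52204588-52204837 on the minus strand, Hoxb4 at chr11:96318017-96318266, Hoxc4 at chr15:103034145-103034394, En1 at chr1:120602237-120602486 and Tal2 at chr4:53779451-53779700, these 4 on the plus strand. Capitals mark a match, on either strand, to one of the 4 motifs searched. The Meis motif was written as TGACAG. The joint motif of Pbx and Hox proteins was written as TGATTNAT. Retinoid receptors bind the hexamer AGGTCA. The TATA box was searched as TATAAA. On the other strand a match reads as its reverse complement.
Hoxa5: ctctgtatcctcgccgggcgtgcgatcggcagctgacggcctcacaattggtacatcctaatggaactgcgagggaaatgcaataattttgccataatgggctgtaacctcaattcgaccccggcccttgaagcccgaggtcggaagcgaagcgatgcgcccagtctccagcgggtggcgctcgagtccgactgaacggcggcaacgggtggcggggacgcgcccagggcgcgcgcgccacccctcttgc
Hoxb4: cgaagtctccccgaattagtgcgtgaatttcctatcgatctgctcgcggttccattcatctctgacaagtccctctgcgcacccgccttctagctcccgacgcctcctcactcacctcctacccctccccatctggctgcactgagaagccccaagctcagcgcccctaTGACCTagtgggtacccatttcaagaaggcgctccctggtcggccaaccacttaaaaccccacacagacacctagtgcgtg
Hoxc4: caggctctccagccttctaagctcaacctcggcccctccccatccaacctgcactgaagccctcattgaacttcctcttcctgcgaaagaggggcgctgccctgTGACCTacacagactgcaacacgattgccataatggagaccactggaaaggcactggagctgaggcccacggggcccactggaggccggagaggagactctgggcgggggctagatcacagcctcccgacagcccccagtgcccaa
En1: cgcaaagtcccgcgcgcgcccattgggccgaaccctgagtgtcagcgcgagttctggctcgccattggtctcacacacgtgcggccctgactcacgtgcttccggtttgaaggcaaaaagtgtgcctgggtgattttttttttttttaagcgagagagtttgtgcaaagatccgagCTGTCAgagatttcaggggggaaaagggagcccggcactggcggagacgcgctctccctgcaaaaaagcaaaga
Tal2: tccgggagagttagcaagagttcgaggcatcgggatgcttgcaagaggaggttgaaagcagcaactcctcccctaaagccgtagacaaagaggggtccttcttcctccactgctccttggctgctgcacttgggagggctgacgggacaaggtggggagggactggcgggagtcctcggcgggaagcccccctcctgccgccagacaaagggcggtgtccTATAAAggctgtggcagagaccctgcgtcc

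Hoxb4 and Hoxc4 each held one AGGTCA on the other strand, 81 and 146 bases before the start. En1 held one TGACAG on the other strand, 74 bases before the start, and Tal2 one TATAAA on its own strand, 30 bases before it. Hoxa5 held no match in this window, and no matches of different motifs overlapped. Over all 32851 windows of this length, the Meis motif was found in 15.9%, the Pbx and Hox motif in 2.8%, the retinoid receptor hexamer in 14.0% and the TATA box in 12.4%. A match describes the letters and is not evidence of a bound site.

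The sort was checked on 7 serotonin genes. Their summed signal was 884 to 1394 on R- and 807 to 1044 on C- arrays, against 50010 to 50471 on R+ and 30632 to 32896 on C+ arrays. Tph2, the enzyme that makes serotonin in neurons, was at 20, 35 and 83 in R- and 18, 18 and 41 in C-. The median signal of an array lay between 98 and 113 in R- and between 95 and 121 in C-. RNA quality moved with the region: the 3′ to 5′ ratio of the beta-actin control probe sets, which rises when RNA is degraded or incompletely copied, was 2.88, 4.39 and 3.30 in R- and 4.89, 4.66 and 7.69 in C- (3.52 ± 0.78 and 5.75 ± 1.69, SD, n = 3; two-sided exact permutation test, p = 0.1, the smallest that 3 against 3 arrays allow). The Gapdh ratio was 1.49 ± 0.57 and 2.03 ± 0.48 (SD, n = 3; exact permutation p = 0.3), and the 18S ribosomal RNA control at the 5′ end read 360 to 1082 on R- and 96 to 146 on C- arrays.

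Between R- and C-, 363 of 12845 genes differed at an adjusted p under 0.05 (2.83%; limma, two-sided, Benjamini-Hochberg over all genes tested). Of these, 135 were higher in R- (1.05% of the genes tested) and 228 were higher in C- (1.78%). The 3 arrays of one population lay above the 3 of the other for each of the 363. Over all 12845 genes tested, the R- arrays lay wholly above the C- arrays for 1078 genes, and the C- arrays wholly above for 1387. The difference was at least 2-fold on the log2(signal + 10) scale for 186 of them, 70 higher in R- and 116 higher in C-, and at least 4-fold for 68. The share of calls that were higher in R- was 37.2%. It was 48.4% when each array was scaled to one median signal. At an unadjusted p under 0.05, the background for the unadjusted counts below, 820 genes were higher in R- (6.38%) and 1101 higher in C- (8.57%).

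The same-numbered arrays deviated together, most strongly those numbered 1. The fit above did not use the replicate number. A block for it raised the calls to 1310 genes, 573 higher in R- and 737 higher in C-, with all 363 among them. With the beta-actin ratio as a covariate 216 were called, 111 higher in R- and 105 higher in C-, of which 160 belonged to the 363, and all 363 kept their sign. Among the genes named below, 33 calls ended with this covariate, those of Abat, Crabp1, Dcx, Diras2, Efna3, Epha3, Ephb1, Fgf13, Fgf17, Flrt3, Gata3, Grp, Irx1, Lbx1, Lmo1, Neurod2, Nppc, Ntn1, Ntrk3, Pknox2, Plxna2, Pou4f1, Rgs5, S100a8, Sema6d, Slc18a2, Slc6a4, Slit1, Snap25, Sox14, Vip, Zfpm2 and Zic4. With the mean of a gene's kept probe sets in place of the chosen one, 20 ended, those of Abat, Dcx, Diras2, Epha3, Flrt3, Gata3, Il17rd, Meis1, Nppc, Nr4a2, Ntn1, Ntrk3, Plxna2, Rbfox1, Rbfox3, Rgs5, Sema6d, Skor1, Snap25 and Zfpm2. Single arrays also carried weight: 198 genes were called without R- replicate 3, 238 without C- replicate 2 and 220 without C- replicate 3. Leaving out all arrays numbered 2 or all numbered 3 left 98 and 79. Below, signals are given for replicates 1, 2 and 3 in that order, and differences are R- minus C- on the log2(signal + 10) scale ± SE with the limma adjusted p. Because RNA came from mixed cells, fewer cells of a type and less RNA per cell cannot be told apart. In a list, the members past the signal filter include genes that passed only through the population in which they are high. The number on the array is therefore given as well. Called counts below are from the filtered fit. Without the filter 125 of 18193 genes were called higher in R- and 205 in C-. Midbrain and isthmus genes then numbered 6 and 2, guidance genes 1 and 3, and neuropeptide precursors 3 and 3. Mesenchyme and meninges markers numbered 0 and 2 and vessel markers 0 and 1, and the other lists kept their called counts.

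**Figure D1:**
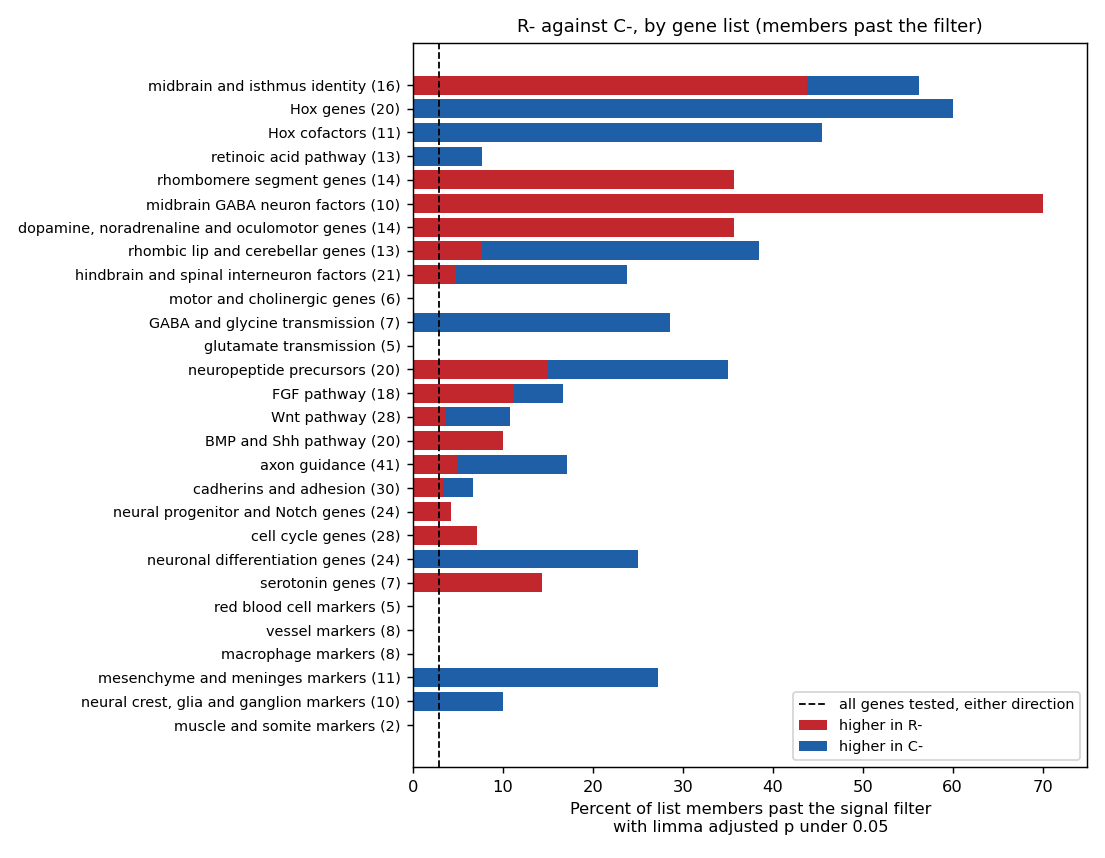
Percent of the members past the signal filter that were called higher in R- (red) or higher in C- (blue), for each of 28 gene lists; the number of members past the filter stands in brackets, and the dashed line is the 2.83% called among all 12845 genes tested. Hox genes (12 of 20 higher in C-), midbrain GABA neuron factors (7 of 10 higher in R-) and midbrain and isthmus genes (7 of 16 higher in R-, 2 higher in C-) have the longest bars.

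Midbrain and isthmus genes included the largest rostral difference. Of 19 on the array 16 passed the filter, 7 were called higher in R- and 2 higher in C-, and the median difference over the 19 was 1.63 (-0.05 over all 18193 genes without a filter). List medians here and below cover every member on the array, from the fit without the filter. En2, a homeodomain factor of the midbrain and anterior hindbrain, had signals of 3339, 4041 and 3452 in R- and 116, 27 and 61 in C- (5.70 ± 0.34, adjusted p = 1.03e-07). No other named gene differed by as much in the rostral direction. Its relative En1 was at 494, 526 and 441 in R- and 97, 144 and 84 in C- (2.10 ± 0.29, adjusted p = 6.43e-04). No R- array overlapped a C- array for either gene.

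Otx2, the forebrain and midbrain determinant, read 1919, 1176 and 1678 in R- and 107, 10 and 59 in C- (4.85 ± 0.53, adjusted p = 5.67e-05). Its paralogue Otx1 read 375, 642 and 383 in R- and 10, 8 and 7 in C- (4.66 ± 0.67, adjusted p = 8.93e-04). The C- signals of Otx1 sat near the offset of 10, so its fold depends on that offset. Cnpy1, a modulator of FGF signalling expressed at the isthmus, was at 605, 798 and 582 in R- and 77, 71 and 58 in C- (3.09 ± 0.26, adjusted p = 4.00e-06). Pax7, a dorsal midbrain and alar plate factor, gave 1454, 1630 and 1632 in R- and 394, 285 and 229 in C- (2.37 ± 0.40, adjusted p = 0.00323).

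The isthmic ligand Fgf17 was at 185, 226 and 228 in R- and 12, 38 and 6 in C- (3.11 ± 0.64, adjusted p = 0.0148). It is a dim gene, and leaving out R- replicate 1, 2 or 3 or C- replicate 3 ended its call (adjusted p up to 0.104). A second Fgf17 probe set, which did not pass the filter, gave 1.63 ± 0.56 (adjusted p = 0.301 when every probe set was tested). In the fit without the filter that probe set stood for Fgf17, which was then not called (limma adjusted p = 0.195). Pax5 (2.07 ± 0.64, adjusted p = 0.114) and Fgf18 (1.15 ± 0.38, adjusted p = 0.153) did not pass. Fgf8 and Wnt1, which define the organizer, did not pass the signal filter. In the limma fit without it neither was called. Fgf8 was dim, at 48, 58 and 91 in R- and 6, 10 and 8 in C- (2.04 ± 0.52, adjusted p = 0.0671). Wnt1 differed by -0.04 ± 0.52 (adjusted p = 0.988).

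The pair of list members higher in C- were Gbx2 and Pax8. Gbx2, the anterior hindbrain partner of Otx2, was at 302, 386 and 243 in R- and 4003, 2800 and 3966 in C- (-3.50 ± 0.32, adjusted p = 9.11e-06). Pax8 was at 298, 293 and 244 in R- and 1621, 857 and 1583 in C- (-2.19 ± 0.29, adjusted p = 4.56e-04). At this stage both genes are also expressed in hindbrain and spinal cord neurons. Gbx1, the paralogue of Gbx2 and a factor of spinal interneurons, differed in the same direction, at 81, 95 and 104 in R- and 2025, 1250 and 1541 in C- (-3.94 ± 0.50, adjusted p = 3.02e-04).

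**Figure D2:**
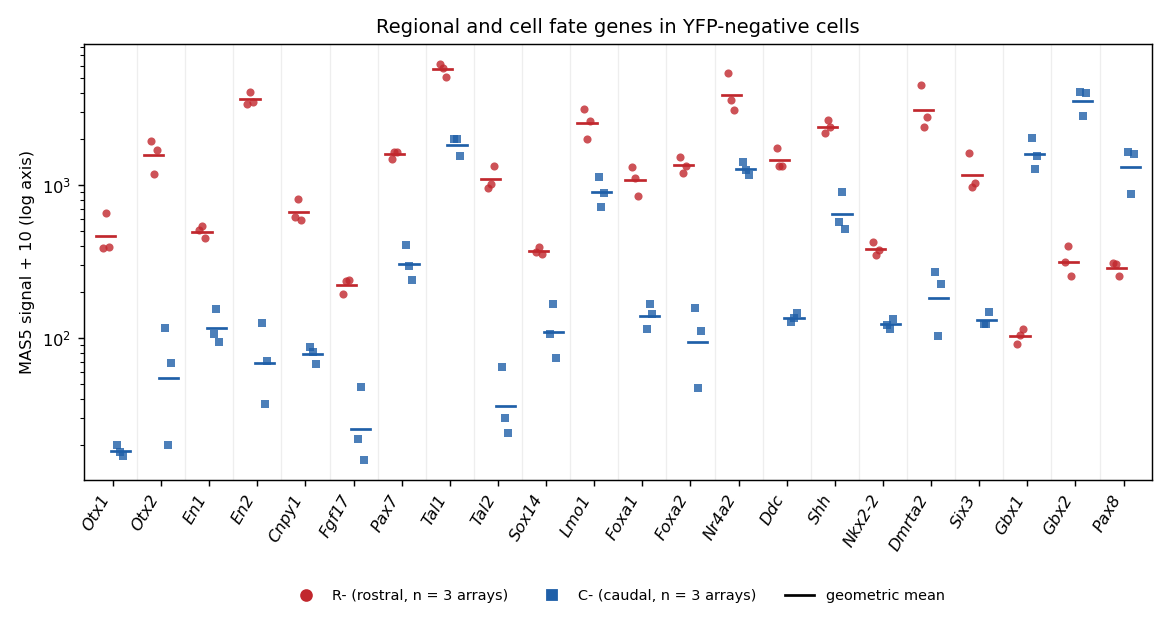
MAS5 signal plus 10 on a log axis for 22 regional and cell fate genes, with one point per array (red circles R-, blue squares C-, n = 3 each) and a bar at the geometric mean. The R- points lie above the C- points for Otx1 to Six3 and below them for Gbx1, Gbx2 and Pax8.

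Hox genes carried the largest differences in the caudal direction. Of 33 on the array 20 passed the filter, 12 were called higher in C- and 0 higher in R- (0 also at an unadjusted limma p under 0.05), and the median difference over the 33 was -1.32. The 12 were Hoxa2 and Hoxb2, Hoxa3, Hoxb3 and Hoxd3, Hoxa4, Hoxb4 and Hoxc4, Hoxa5, Hoxb5 and Hoxc5, and Hoxb6. With the beta-actin covariate, with median scaling and without any one array, at least 12 were called higher in C-.

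Paralogue group 5 held the largest difference in either direction. Hoxb5 was at 6, 47 and 23 in R- and 10257, 11129 and 10318 in C- (-8.41 ± 0.50, adjusted p = 1.03e-07). Hoxa5, whose upstream sequence is shown above, was at 6, 143 and 164 in R- and 16521, 11035 and 13488 in C- (-7.49 ± 0.72, adjusted p = 1.71e-05). For Hoxc5 the signals were 38, 55 and 16 in R- and 5850, 6267 and 6255 in C- (-7.15 ± 0.35, adjusted p = 3.24e-08). The R- signals of all 3 fall in the range of dim probe sets, so that the folds depend on the offset. A further Hoxc5 probe set gave -1.05 ± 0.50 (adjusted p = 0.527 when every probe set was tested). Another Hoxa5 probe set, with means of 323 in R- and 7557 in C-, gave a smaller difference of -4.57 ± 0.34 (limma adjusted p = 4.31e-06 in the same fit).

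In group 4, Hoxc4 was at 6, 40 and 74 in R- and 7731, 5967 and 8177 in C- (-7.48 ± 0.56, adjusted p = 1.33e-06). Hoxa4 was at 28, 54 and 11 in R- and 2251, 2049 and 2433 in C- (-5.92 ± 0.43), and Hoxb4 at 61, 52 and 73 in R- and 3626, 2457 and 3256 in C- (-5.43 ± 0.39; adjusted p = 8.90e-07 for both). In group 3, Hoxb3 differed by -5.61 ± 0.35, Hoxd3 by -5.40 ± 0.54 and Hoxa3 by -5.26 ± 0.31, with adjusted p of 1.69e-07, 2.32e-05 and 1.03e-07. Other Hoxa3 probe sets gave -1.21 ± 0.50 and -0.20 ± 0.65, neither called. Other probe sets of Hoxa4 (-2.41 ± 0.49) and Hoxb3 (-4.53 ± 0.53) gave smaller differences. Both were called when every probe set was tested (limma adjusted p = 0.0321 and 3.32e-04).

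Group 2 genes, whose domains reach furthest forward, were present on both sides. Hoxb2 was at 583, 634 and 615 in R- and 5612, 3148 and 4150 in C- (-2.76 ± 0.20, adjusted p = 7.59e-07). Hoxa2, the most anterior Hox gene of the hindbrain, was at 261, 297 and 273 in R- and 1792, 1819 and 1931 in C- (-2.70 ± 0.16, adjusted p = 1.03e-07). Hoxb6, the one called member beyond group 5, was at 46, 115 and 66 in R- and 3502, 4010 and 3725 in C- (-5.53 ± 0.35, adjusted p = 1.85e-07).

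Higher groups were not called. Hoxc6 (108, 149 and 226 in R-, 286, 304 and 368 in C-, adjusted p = 0.106) and Hoxb9 (30, 8 and 46 in R-, 242, 68 and 612 in C-, -2.75 ± 0.75, adjusted p = 0.0713) lay higher in C- on every array without passing. Hoxb1, which marks the fourth rhombomere, did not pass either (-1.44 ± 0.43, adjusted p = 0.098). Hoxa9, Hoxc10, Hoxa11 and Hoxa13, which pattern trunk and limb, had overlapping or dim signals. With the replicate block 15 Hox genes were called higher in C- and again 0 higher in R-.

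**Figure D3:**
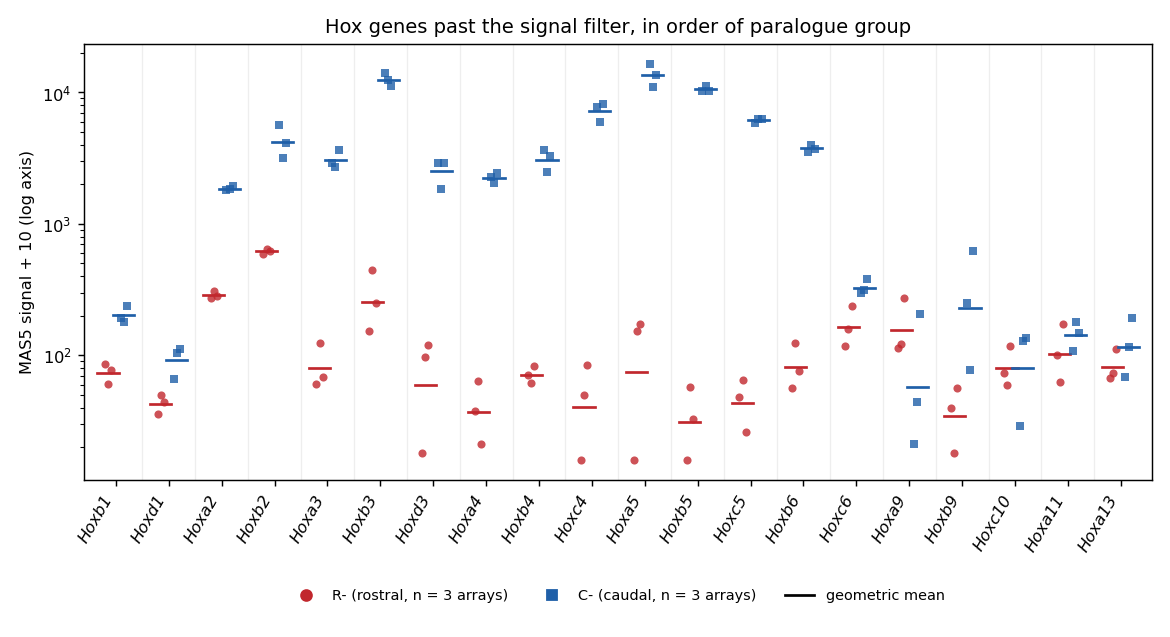
MAS5 signal plus 10 on a log axis for the 20 Hox genes past the signal filter, ordered by paralogue number, with one point per array (red circles R-, blue squares C-, n = 3 each) and a bar at the geometric mean. The gap is widest for groups 3 to 5 and Hoxb6, and the arrays overlap for Hoxa9, Hoxc10, Hoxa11 and Hoxa13.

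Non-coding transcripts of the Hox clusters were also higher in C-. Hoxb5os was at 112, 296 and 276 in R- and 4785, 4926 and 5221 in C- (-4.50 ± 0.35), Gm15050 at 73, 59 and 80 in R- and 1686, 1478 and 1221 in C- (-4.19 ± 0.22), and Hoxd3os1 at 4, 34 and 32 in R- and 484, 385 and 542 in C- (-4.01 ± 0.58). A second Hoxd3os1 probe set gave -1.45 ± 0.69 (adjusted p = 0.527 when every probe set was tested). In the GRCm38.p6 annotation they overlap Hoxb5 and Hoxb6, Hoxa3, and Hoxd3. Their signals are therefore uncertain as measures separate from those genes.

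Among partners of Hox proteins the Teashirt zinc finger factors, trunk and hindbrain regulators, were higher in C-. Of 11 cofactor genes on the array, all past the filter, 5 were higher in C- and 0 higher in R- (7 and 2 at an unadjusted limma p under 0.05; median -0.79). With the replicate block these were 7 and 2 as well. Tshz2 was at 356, 448 and 401 in R- and 2160, 1990 and 2157 in C- (-2.36 ± 0.15, adjusted p = 1.67e-07). Tshz1 differed by -1.87 ± 0.17 and Tshz3 by -1.81 ± 0.18, with adjusted p of 1.21e-05 and 2.05e-05. Meis1, a TALE homeodomain cofactor, was at 1919, 1863 and 1829 in R- and 3810, 2966 and 3418 in C- (-0.85 ± 0.14, adjusted p = 0.00283). Pknox2, of the same class, differed by -1.15 ± 0.23 (adjusted p = 0.0117), a call lost without R- replicate 1 or C- replicate 3 (adjusted p up to 0.0622). Meis2 (-0.38 ± 0.17, adjusted p = 0.3) and Pbx3 (0.28 ± 0.12, adjusted p = 0.3) did not pass.

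Of 19 retinoic acid genes on the array, 13 passed the filter and 1 was called, higher in C- (median -0.07 over the 19), against 2 with the replicate block. It was Crabp1, a cytoplasmic retinoic acid binding protein, at 2743, 3062 and 3776 in R- and 13687, 11332 and 13039 in C- (-1.99 ± 0.31, adjusted p = 0.00191, and 0.0612 with the beta-actin covariate). Rarb, a receptor gene that retinoic acid induces, was at 117, 75 and 99 in R- and 240, 418 and 427 in C- and missed the threshold (-1.77 ± 0.47, adjusted p = 0.0612). The degrading enzyme Cyp26b1 (-0.07 ± 0.18) and the binding protein Crabp2 (0.22 ± 0.23) did not pass, with adjusted p of 0.899 and 0.717.

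Most factors of midbrain GABAergic neurons were higher in R-. All 10 on the array passed the filter, 7 were called higher in R- and 0 higher in C- (also 7 and 0 at an unadjusted limma p under 0.05; median 0.89). Tal2, a basic helix-loop-helix selector of midbrain GABAergic fate, was at 950, 1003 and 1327 in R- and 55, 20 and 14 in C- (4.92 ± 0.49, adjusted p = 2.42e-05). Its relative Tal1 was expressed on both sides, at 6160, 5800 and 5057 in R- and 1984, 1972 and 1528 in C- (1.63 ± 0.19, adjusted p = 1.18e-04). For both genes the arrays of the populations did not overlap. A second Tal2 probe set gave 1.54 ± 0.42 (adjusted p = 0.148 when every probe set was tested).

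Sox14, a marker of a ventral GABAergic class, was at 355, 383 and 343 in R- and 96, 157 and 64 in C- (1.76 ± 0.34, adjusted p = 0.00945). Lmo1, a LIM-only cofactor, was at 3097, 1970 and 2586 in R- and 1122, 707 and 871 in C- (1.49 ± 0.24, adjusted p = 0.00211). Smaller differences were seen for the zinc finger factors Gata2 (0.80 ± 0.15, adjusted p = 0.00923) and Gata3 (0.90 ± 0.22, adjusted p = 0.0377) and the Gata cofactor Zfpm2 (0.87 ± 0.19, adjusted p = 0.0214). Lhx1, Lhx5 and Zfpm1 did not pass. The Gata2 call ended without C- replicate 3, the Gata3 call without R- replicate 1, 2 or 3 or C- replicate 2 or 3 and the Zfpm2 call without R- replicate 2 or 3 or C- replicate 1 or 3. With the beta-actin covariate 3 of the 10 were called, without C- replicate 3 there were 4, and without the arrays numbered 2 or those numbered 3 there were 3 and 2.

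Genes of ventral midbrain and monoaminergic neurons included 5 that were higher in R-. Of 14 on the array, all past the filter, 5 were higher in R- and 0 higher in C- (8 and 1 at an unadjusted limma p under 0.05; median 0.61). Foxa2, a forkhead factor of the floor plate and of dopaminergic progenitors, was at 1503, 1189 and 1314 in R- and 148, 37 and 101 in C- (3.84 ± 0.33, adjusted p = 6.20e-06). Foxa1 was at 1305, 1098 and 842 in R- and 104, 157 and 133 in C- (2.94 ± 0.28, adjusted p = 1.31e-05). Ddc, the decarboxylase that completes dopamine and serotonin synthesis, was at 1739, 1321 and 1315 in R- and 117, 125 and 135 in C- (3.43 ± 0.14, adjusted p = 5.48e-09).

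Nr4a2, an orphan nuclear receptor needed for dopaminergic neurons, was at 5327, 3573 and 3055 in R- and 1401, 1247 and 1154 in C- (1.61 ± 0.18, adjusted p = 8.22e-05). Th, the rate-limiting enzyme of dopamine synthesis, was higher on every R- array, at 878, 494 and 590 against 307, 176 and 294, and did not pass (1.30 ± 0.37, adjusted p = 0.0882). Pitx3, a dopaminergic homeodomain factor, did not pass (1.43 ± 0.54, adjusted p = 0.217), nor did the dopamine transporter Slc6a3 (0.28 ± 0.35, adjusted p = 0.768).

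The vesicular monoamine transporter Slc18a2 was the remaining called gene of the ventral midbrain and monoaminergic list. The serotonin transporter Slc6a4 is a marker of the cells that the sort removed. Slc18a2 was at 112, 144 and 159 in R- and 72, 77 and 60 in C- (0.89 ± 0.18, adjusted p = 0.0135), and Slc6a4 at 66, 118 and 124 in R- and 30, 65 and 13 in C- (1.41 ± 0.32, adjusted p = 0.0271). Both are dim. The Slc18a2 call ended without R- replicate 3 or C- replicate 3, and the Slc6a4 call ended without R- replicate 2 or 3 or C- replicate 1 or 3. Slc6a4 was the one of 7 serotonin genes called, and the summed signal of the 7 is given above. At an unadjusted limma p under 0.05, 3 of the 7 were higher in R- and 0 in C- (median 0.55). When every probe set was tested, a second, dim Gch1 probe set was called higher in R- (1.19 ± 0.25, adjusted p = 0.0364). The Gch1 probe set used was not (1.22 ± 0.45, adjusted p = 0.358). The part of remaining serotonin neurons, or of other monoaminergic neurons, in these calls was not tested.

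Of the BMP and Shh genes, Shh and Nkx2-2 were higher in R-. Shh, the ventralizing ligand of floor plate and notochord, was at 2174, 2633 and 2381 in R- and 562, 892 and 504 in C- (1.90 ± 0.35, adjusted p = 0.0065). A dim second Shh probe set gave -0.57 ± 0.51 (adjusted p = 0.796 when every probe set was tested). Nkx2-2, a homeodomain gene that Shh signalling induces, was at 413, 340 and 365 in R- and 112, 104 and 124 in C- (1.63 ± 0.18, adjusted p = 5.57e-05). These were the called members among 25 BMP and Shh genes on the array, 20 of which passed the filter, and 0 were higher in C- (1 at an unadjusted limma p under 0.05; median 0.01 over the 25), against 3 in R- and 1 in C- with the replicate block. Ptch1 and Gli1, which Shh signalling also induces, did not pass and had overlapping arrays (-0.17 ± 0.16 and 0.01 ± 0.44, adjusted p = 0.667 and 0.994).

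Of the genes with the largest rostral differences among those with a higher mean signal over 450, the rest belonged to no list. Dmrta2, a DM-domain factor of neural progenitors, was at 4504, 2365 and 2770 in R- and 258, 93 and 215 in C- (4.08 ± 0.35, adjusted p = 5.19e-06). Six3, a homeodomain factor best known from the anterior forebrain and eye, was at 1593, 951 and 1013 in R- and 113, 114 and 137 in C- (3.15 ± 0.28, adjusted p = 8.50e-06), while dim Six3 probe sets gave -0.57 ± 0.56 and 0.66 ± 0.66, neither called. Npnt, which encodes the extracellular matrix protein nephronectin, differed by 2.82 ± 0.26. Other Npnt probe sets gave 0.03 ± 0.45, 0.41 ± 0.51 and -0.29 ± 0.33, none called when every probe set was tested. The helix-loop-helix gene Tcf24 differed by 2.74 ± 0.38 and the long non-coding Gm10421, which overlaps Ptprn2, by 2.90 ± 0.33. S100a8, a calcium-binding protein of neutrophils, was at 1635, 454 and 221 in R- and 46, 154 and 117 in C- (2.41 ± 0.56, adjusted p = 0.032). One R- array carried most of that difference, and without R- replicate 1 it was 1.64 (adjusted p = 0.131).

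Among segment genes, 4 of the Iroquois family were higher in R-. Of 15 rhombomere segment genes on the array 14 passed the filter, 5 were higher in R- and 0 higher in C- (5 and 2 at an unadjusted limma p under 0.05; median 0.29 over the 15), and 6 and 2 with the replicate block. Irx3 was at 6241, 4513 and 5449 in R- and 2179, 1515 and 1793 in C- (1.56 ± 0.18, adjusted p = 8.22e-05). Irx2 differed by 1.06 ± 0.12, Irx5 by 1.26 ± 0.24 and Irx1 by 0.98 ± 0.22, with adjusted p of 1.18e-04, 0.008 and 0.0227. The Irx1 call ended without R- replicate 1 or 3 or C- replicate 1 or 3. Irx4 did not pass, with overlapping arrays (0.20 ± 0.46, adjusted p = 0.889). Spry1, an antagonist that FGF signalling induces, was at 627, 1001 and 814 in R- and 265, 269 and 367 in C- (1.40 ± 0.26, adjusted p = 0.00773). Egr2, which marks rhombomeres 3 and 5, was dim on both sides (-0.36 ± 0.33, adjusted p = 0.673), and the segment boundary receptor Epha4 did not pass (0.29 ± 0.15, adjusted p = 0.403).

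Dorsal factors split between the regions. Of 14 rhombic lip and cerebellar genes on the array 13 passed the filter, 1 was higher in R- and 4 were higher in C- (median -0.42 over the 14). Lhx9, a LIM-homeodomain factor of dorsal neurons, was the rostral one, at 3161, 4738 and 4386 in R- and 756, 1152 and 1163 in C- (2.00 ± 0.35, adjusted p = 0.00494). Zic1, a zinc finger factor of dorsal neural tube, was high in both and higher in C-, at 7378, 6391 and 6062 and 20772, 16530 and 15892 (-1.42 ± 0.19, adjusted p = 4.95e-04). Its neighbour Zic4 was at 169, 154 and 177 in R- and 1130, 671 and 1023 in C- (-2.40 ± 0.40, adjusted p = 0.00305). Mab21l2 differed by -2.05 ± 0.16 (adjusted p = 2.10e-06) and the netrin receptor Unc5c by -0.88 ± 0.20 (adjusted p = 0.0251), a call that ended without R- replicate 2 or 3 or C- replicate 1 or 2. Atoh1, the rhombic lip determinant, did not differ detectably (-0.07 ± 0.39, adjusted p = 0.962).

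Interneuron factors of hindbrain and spinal cord were called in both directions. Of 24 on the array 21 passed the filter, 4 were higher in C- and 1 in R- (median -0.73 over the 24), and with the replicate block these counts were 7 and 2. Lbx1, which specifies dorsal inhibitory and sensory relay neurons, was at 685, 768 and 820 in R- and 3819, 1784 and 3059 in C- (-1.85 ± 0.28, adjusted p = 0.00136, and 0.0524 with the beta-actin covariate). Skor1, a corepressor that acts with Lbx1, was at 3334, 3385 and 2691 in R- and 11264, 11034 and 10306 in C- (-1.80 ± 0.20, adjusted p = 5.67e-05). Pou4f1, a POU factor of sensory and dorsal excitatory neurons, was at 1728, 2394 and 2083 in R- and 4382, 5703 and 4954 in C- (-1.28 ± 0.22, adjusted p = 0.00349, and 0.104 with the covariate).

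The fourth was Gbx1, described above. Dbx1, a homeodomain gene of a progenitor domain midway along the dorsal to ventral axis, was the rostral member, at 1610, 2867 and 2054 in R- and 474, 504 and 352 in C- (2.25 ± 0.29, adjusted p = 3.86e-04). Lhx3, a LIM-homeodomain factor of motor neurons and V2 interneurons, was at 92, 76 and 219 in R- and 677, 487 and 609 in C- without passing (-2.24 ± 0.64, adjusted p = 0.083). Isl1 (-0.89 ± 0.25, adjusted p = 0.0785) and Tlx3 (-1.07 ± 0.34, adjusted p = 0.123) did not pass. Of 12 motor and cholinergic genes on the array 6 passed the filter and 0 were called (limma; 1 at an unadjusted p under 0.05, the intermediate filament gene Prph at 1.86 ± 0.76).

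Of 7 GABA and glycine genes, 2 were higher in C-. Slc6a5, the neuronal glycine transporter that marks inhibitory neurons of hindbrain and spinal cord, was at 151, 228 and 149 in R- and 1676, 1710 and 1610 in C- (-3.20 ± 0.33, adjusted p = 3.01e-05). A dim second probe set gave -0.24 ± 0.43 (adjusted p = 0.92 when every probe set was tested). Abat, which breaks down GABA, was at 1264, 1852 and 1195 in R- and 2939, 3091 and 2450 in C- (-0.99 ± 0.17, adjusted p = 0.00396, and 0.0717 with the beta-actin covariate). A dim second Abat probe set lay higher on every R- array (0.59 ± 0.32, adjusted p = 0.598 when every probe set was tested), and with the mean of both the difference was -0.20 (adjusted p = 0.62). The other glycine transporter, Slc6a9, did not pass, with overlapping arrays (0.24 ± 0.34, adjusted p = 0.798). The GABA-synthesizing enzymes Gad1 (-0.47 ± 0.19) and Gad2 (-0.38 ± 0.22) and the vesicular transporter Slc32a1 (-0.11 ± 0.22) did not pass, with adjusted p of 0.238, 0.454 and 0.869. The vesicular glutamate transporter Slc17a6 did not pass either (-0.35 ± 0.28, adjusted p = 0.613).

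Neuropeptide precursors parted in both directions: of 24 on the array 20 passed the filter, 3 were higher in R- and 4 higher in C- (median -0.08 over the 24), against 5 and 4 with the replicate block. Npy, the precursor of neuropeptide Y, was at 1241, 1159 and 1123 in R- and 10175, 7383 and 6532 in C- (-2.74 ± 0.16, adjusted p = 1.03e-07). Galanin (Gal) was at 114, 80 and 87 in R- and 309, 304 and 216 in C- (-1.46 ± 0.27, adjusted p = 0.00643). Grp (-2.72 ± 0.59, adjusted p = 0.0208) and Nppc (-2.74 ± 0.70, adjusted p = 0.0499) were dim. Their calls ended, for Grp, without R- replicate 2 or 3 or C- replicate 2 or 3 and, for Nppc, without R- replicate 1 or 2 or C- replicate 1, 2 or 3.

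In the rostral direction, Cartpt, the precursor of the CART peptide, was at 1790, 1340 and 1829 in R- and 503, 764 and 736 in C- (1.31 ± 0.22, adjusted p = 0.00323). Cholecystokinin (Cck) was at 512, 290 and 338 in R- and 76, 66 and 96 in C- (2.10 ± 0.37, adjusted p = 0.00511), and without R- replicate 1 its adjusted p was 0.0512. Vip was dim in R-, at 203, 247 and 191, and dimmer in C-, at 8, 22 and 73 (2.62 ± 0.60, adjusted p = 0.0277), a call that ended without R- replicate 1, 2 or 3 or C- replicate 1 or 2. Somatostatin (Sst) was high on both sides, at 8805, 4976 and 6022 and 9237, 7121 and 4365 (-0.04 ± 0.29, adjusted p = 0.971). Neurotensin (Nts) was higher on each R- array and did not pass (1.38 ± 0.38, adjusted p = 0.076).

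**Figure D4:**
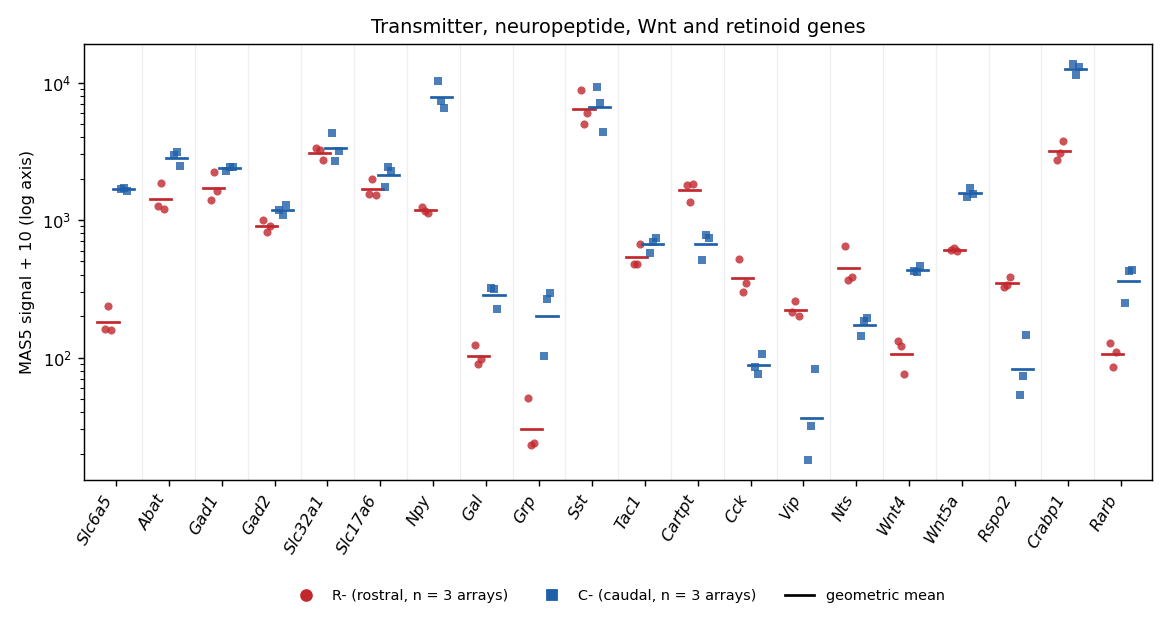
MAS5 signal plus 10 on a log axis for 20 transmitter, neuropeptide, Wnt and retinoid genes, with one point per array (red circles R-, blue squares C-, n = 3 each) and a bar at the geometric mean. Slc6a5, Npy, Wnt4 and Crabp1 are separated with C- above, Cartpt, Cck and Rspo2 with R- above, and the Slc32a1 and Sst arrays overlap.

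Among 33 Wnt genes on the array 28 passed the filter, 2 were higher in C- and 1 in R- (median 0.10 over the 33), against 3 and 4 with the replicate block. Wnt4 was at 121, 111 and 66 in R- and 417, 412 and 450 in C- (-2.03 ± 0.28, adjusted p = 7.25e-04), and Wnt5a, a ligand of the non-canonical branch, at 593, 617 and 587 in R- and 1468, 1696 and 1549 in C- (-1.37 ± 0.20, adjusted p = 8.46e-04). The rostral one was Rspo2, an R-spondin that strengthens Wnt signalling, at 316, 325 and 373 in R- and 43, 64 and 137 in C- (2.06 ± 0.48, adjusted p = 0.0314), whose call ended without R- replicate 1, 2 or 3 or C- replicate 1 or 2. Axin2, a target of canonical Wnt signalling, did not pass (-0.67 ± 0.20, adjusted p = 0.11).

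In the FGF pathway 18 of 21 genes on the array passed the filter. The membrane proteins Flrt3 (1.65 ± 0.34, adjusted p = 0.0151) and Il17rd, an FGF antagonist (1.13 ± 0.25, adjusted p = 0.0253), were higher in R-, and the intracellular Fgf13 was higher in C- (-0.73 ± 0.15, adjusted p = 0.0139). These calls ended, for Flrt3, without R- replicate 1 or C- replicate 2 or 3, for Il17rd, without R- replicate 2 or 3 or C- replicate 1 or 3, and, for Fgf13, without R- replicate 1 or C- replicate 2 or 3. In this list 2 genes were higher in R- and 1 in C- (median 0.10 over the 21), against 4 and 1 with the replicate block. These counts leave out Fgf17, Cnpy1 and Spry1, which belong to other lists and are described above as higher in R-.

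Of 46 guidance genes on the array 41 passed the filter, 2 were higher in R- and 5 higher in C- (median -0.03 over the 46). Ephb1, an Eph receptor, was at 5187, 3868 and 3951 in R- and 2336, 2367 and 2216 in C- (0.90 ± 0.15, adjusted p = 0.00255). Netrin 1 (Ntn1), secreted by the floor plate, differed by 0.55 ± 0.14 (adjusted p = 0.0462), a call lost without any one of the 6 arrays. On the caudal side, Sema6d was at 892, 1243 and 1102 in R- and 1996, 3643 and 3398 in C- (-1.44 ± 0.24, adjusted p = 0.0033) and its receptor family member Plxna2 differed by -0.70 ± 0.14 (adjusted p = 0.0103). Slit1, Epha3 and Efna3 passed with differences of -0.75 ± 0.19, -0.61 ± 0.15 and -0.94 ± 0.23, and the calls of Epha3 and Efna3 ended without any one array, that of Slit1 without R- replicate 1 or 3 or C- replicate 1, 2 or 3. The Plxna2 call ended without R- replicate 3. With the beta-actin covariate 0 guidance genes were called (limma), and the adjusted p was 0.0697 for Ephb1 and 0.0988 for Sema6d. Median scaling left 1 in each direction. For Sema6d the mean of its probe sets gave -0.61 (adjusted p = 0.417), and for Plxna2 -0.37 (adjusted p = 0.628). Of 33 cadherin and adhesion genes on the array 30 passed the filter, and 1 was called in each direction. Cntnap2, an axonal neurexin-family protein, was higher in C- (1513, 1543 and 1687 in R-, 4185, 3855 and 3587 in C-, -1.29 ± 0.12, adjusted p = 1.71e-05). The protocadherin Pcdh8 was higher in R- (0.81 ± 0.20, adjusted p = 0.038), a call that ended without R- replicate 2 or 3 or C- replicate 1 or 3. With the replicate block 3 were higher in each direction.

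The called cell cycle genes were a pair of G1 cyclins. Of 28 cell cycle genes past the filter, out of 29 on the array, 2 were higher in R- and 0 in C- (10 and 0 at an unadjusted limma p under 0.05; median 0.47 over the 29), and with the replicate block 9 were higher in R-. They were Ccnd2, at 4210, 6183 and 6446 in R- and 1393, 1555 and 2092 in C- (1.73 ± 0.30, adjusted p = 0.00421), and Ccnd1, at 5413, 4659 and 6279 in R- and 2862, 2628 and 3188 in C- (0.91 ± 0.16, adjusted p = 0.00407). The replication clamp gene Pcna missed the threshold (0.47 ± 0.12, adjusted p = 0.0534), and Mki67, a marker of cycling cells, did not pass (-0.15 ± 0.45, adjusted p = 0.925). Of 26 progenitor and Notch genes on the array 24 passed the filter and 1 was called (4.2%, against 2.83% of all genes tested). It was Sox1, higher in R- (0.80 ± 0.17, adjusted p = 0.0214), a call that ended without R- replicate 2 or 3 or C- replicate 1, 2 or 3. At an unadjusted limma p under 0.05, 8 were higher in R- and 1 in C- (median 0.25 over the 26). With the block 6 were higher in R- and 0 in C-, and with the beta-actin covariate 4 and 0.

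Of 24 neuronal differentiation genes, all past the filter, 6 were higher in C- and 0 in R- (9 and 2 at an unadjusted limma p under 0.05; median -0.09). Rbfox1, a neuronal splicing regulator, was at 1818, 1898 and 1472 in R- and 4869, 5737 and 4786 in C- (-1.57 ± 0.14, adjusted p = 9.61e-06). Its other probe sets gave -0.50 ± 0.32, -0.49 ± 0.47 and -0.31 ± 0.51, none called when every probe set was tested, and with the mean of its probe sets the difference was -0.72 (adjusted p = 0.188). The helix-loop-helix factor Neurod6 was at 550, 579 and 488 in R- and 2008, 2133 and 1670 in C- (-1.82 ± 0.28, adjusted p = 0.00169). Doublecortin (Dcx, -0.55 ± 0.10), Snap25 (-0.67 ± 0.13), Rbfox3 (-0.68 ± 0.15) and Neurod2 (-0.87 ± 0.20) had smaller differences. The calls of Dcx and Snap25 ended without R- replicate 3, that of Rbfox3 without R- replicate 2 or 3 or C- replicate 1 or 3 and that of Neurod2 without R- replicate 2 or 3 or C- replicate 1, 2 or 3. Of this list 2 were higher in C- with median scaling and 3 with the beta-actin covariate, and leaving out one array left between 2 and 6.

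Some markers of other cell types were higher in C-. Of 16 mesenchyme and meninges markers on the array 11 passed the filter, 3 were higher in C- and 0 in R- (5 and 0 at an unadjusted limma p under 0.05; median -0.84 over the 16), against 5 in C- with the replicate block, and their summed signal was 2573 to 4010 in R- and 5302 to 6529 in C-. The 3 were Dcn, a connective tissue proteoglycan (152, 88 and 157 in R-, 502, 292 and 457 in C-, -1.59 ± 0.29, adjusted p = 0.00592), the pericyte gene Rgs5 (-0.99 ± 0.21, adjusted p = 0.0165; not called without R- replicate 2 or 3 or C- replicate 1 or 2) and the receptor Pdgfra (8, 5 and 13 in R-, 275, 354 and 308 in C-, -4.12 ± 0.66, adjusted p = 0.00211). The R- signals of Pdgfra sat near the offset of 10, so its fold depends on that offset. Without the filter another Pdgfra probe set stood for the gene and its call ended. That probe set gave -0.01 ± 0.57 (adjusted p = 0.999 when every probe set was tested). The collagen genes Col1a2 (-1.22 ± 0.31) and Col3a1 (-1.33 ± 0.34) lay higher on every C- array with adjusted p of 0.0513 and 0.0519.

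Of 11 neural crest, glia and ganglion markers on the array 10 passed the filter. Their summed signal was 8988 to 11870 in R- and 14008 to 15160 in C-. By limma 1 was called higher in C-, against 3 with the replicate block. It was the neurotrophin receptor Ntrk3 (-0.94 ± 0.18, adjusted p = 0.00773). At an unadjusted limma p under 0.05, 5 markers were higher in C- and 0 in R- (median -0.76 over the 11). Among them Sox10, which defines crest-derived glia, was dim on both sides, at 133, 92 and 99 in R- and 138, 296 and 218 in C-. Vessel markers summed to 1281 to 1365 in R- and 1678 to 2369 in C-, macrophage markers to 1205 to 1604 and 1010 to 1569. Red blood cell genes, largely embryonic globins, summed to 45282 to 59386 in R- and 40649 to 45165 in C-. On the array were 12 vessel, 12 macrophage and 7 red blood cell markers, of which 8, 8 and 5 passed the filter. By limma 0 members of these 3 lists were called, nor were the 2 muscle and somite markers past the filter, of 12 on the array. At an unadjusted p under 0.05 there were 2, the vessel markers Cldn5 (-1.05 ± 0.33) and Ramp2 (-0.62 ± 0.24). With the replicate block the vessel marker Cldn5 (adjusted p = 0.0438) was higher in C- and the embryonic globin gene Hbb-bh1 (adjusted p = 0.0373) higher in R-. The fit without the filter called the vessel marker Tie1 higher in C-, at 3, 3 and 6 in R- and 42, 29 and 33 in C- (adjusted p = 0.0357). The part of these cells in the differences above was not tested.

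The regional differences of YFP-negative cells were set beside those of serotonin neurons, from R+ and C+ arrays that share no array with R- and C-. The beta-actin ratio parted these arrays in the same direction, at 3.24 ± 0.52 in R+ and 5.79 ± 1.20 in C+ (SD, n = 3). Same-numbered arrays also deviated together across the populations, so the comparisons are not fully independent. The part of either in the shared calls was not tested. Between R+ and C+ 940 of the 12845 genes were called (7.32%). Of the 363 genes called between R- and C-, 175 were also called between R+ and C+ in the same direction, which is 48.2% of the 363 and 18.6% of the 940. They were 47 genes higher and 128 lower on the rostral side. A further 14 were called in the opposite direction, and 174 were not called.

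The Hox and isthmus genes were among the shared ones. Hoxb5 differed by -8.41 ± 0.50 in YFP-negative and by -6.95 ± 0.50 in YFP-positive cells, Hoxb3 by -5.61 ± 0.35 and -5.93 ± 0.35, En2 by 5.70 ± 0.34 and 4.04 ± 0.34, and Cnpy1 by 3.09 ± 0.26 and 3.10 ± 0.26. Tests of the difference between these differences did not pass for any of the 4, with adjusted p of 0.73, 0.974, 0.162 and 0.997.

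A test of the difference between both regional differences called 150 of 12845 genes (1.17%), 58 of them among the 363, and 340 with the replicate block. Foxa2 differed by 3.84 ± 0.33 between R- and C- and by -0.19 ± 0.33 between R+ and C+ (adjusted p of the difference = 2.83e-04). Ddc differed by 3.43 ± 0.14 and 1.22 ± 0.14 (2.39e-05), Tal2 by 4.92 ± 0.49 and 1.00 ± 0.49 (0.00919), Nr4a2 by 1.61 ± 0.18 and -0.30 ± 0.18 (0.00104), and Shh by 1.90 ± 0.35 and -0.85 ± 0.35 (0.00977). For these 5 genes the rostral excess of YFP-negative cells was the larger. Among genes higher in C-, Hoxb6 differed by -5.53 ± 0.35 and -2.45 ± 0.35 (0.00486), Hoxc5 by -7.15 ± 0.35 and -4.67 ± 0.35 (0.0224), and Tshz2 by -2.36 ± 0.15 and -0.95 ± 0.15 (0.00244). Meis1 went the other way, with -0.85 ± 0.14 in YFP-negative and -1.99 ± 0.14 in YFP-positive cells (0.00782).

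**Figure D5:**
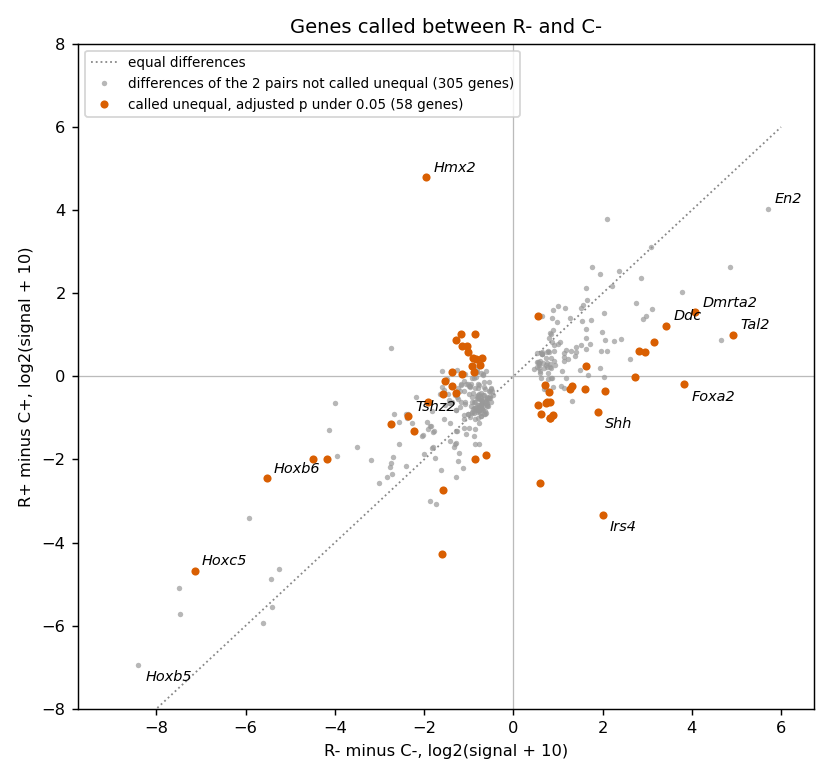
Difference between R- and C- (horizontal) against the difference between R+ and C+ (vertical), both on the log2(signal + 10) scale, for the 363 genes called between R- and C-. Orange points are the 58 genes whose differences were called unequal, grey points the other 305, and the dotted line marks equal differences; Foxa2, Shh and Irs4 lie on the rostral side for YFP-negative cells and at or below 0 for YFP-positive cells.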

How the data were processed

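RNA from 12 sorted samples was measured on Affymetrix Mouse 430 2.0 arrays. The deposited values are whole-number signal intensity, for which the submitters' processing notes name MAS5 without version or settings. The mean without the lowest and highest 2% was 500 on every array, so the arrays share a scale. The probe table gave 34945 probe sets one symbol, 932 several and 9160 none. RefSeq (GRCm38.p6) matched 34741 by Entrez number and changed 0. A probe set was kept if its signal exceeded 107, the overall median, on 3 or more arrays. Of a gene's kept probe sets, the brightest on average stood for it, and one named _x_at only where no other was kept. log2(signal + 10) of the deposited intensity was fitted with limma 3.58.1 (R 4.3.3; one mean per group over 12 arrays, eBayes with trend). Dim genes have understated differences here, and the number of arrays limits precision. The procedure was run on simulated data with independent noise. It called 6% of genes given a log2 difference of 0.5, 46.4% at 1, 86.4% at 2 and 94% at 3 (250 genes each). It also called 0.043% of genes given none. That noise lacked the shared deviations of same-numbered arrays, so recovery with such deviations was not tested. Named were list members, the 15 genes per direction with the largest difference among called, non-overlapping genes with a higher mean over 450, and the 5 per direction with the smallest p for the difference of differences. Members and lists were chosen with earlier results of these data known. Same-numbered arrays correlated at 0.118 to 0.52 in deviations from group means (18 pairs, all over 0.1). The 36 other pairs lay between -0.398 and 0.273, with 5 over 0.1. The largest correlations were between arrays numbered 1. The main fit left the replicate numbers out, so its p-values ignore any pairing, and a block for them was an alternative. The alternatives were other offsets, filters, normalizations, probe set rules, covariates, left-out single R- or C- arrays and left-out replicate numbers. No array pair held identical values. Promoter windows came from RefSeq, and no genome was used here.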

Additional observations from a re-analysis of the deposited data

Results flagged for a closer look

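For 10 genes the rostral to caudal difference of YFP-negative cells was unlike that of YFP-positive cells, by a limma test of the difference between both differences (R- minus C-, less R+ minus C+; adjusted over 12845 genes). Among genes with a highest group mean over 450, they had the 5 smallest adjusted p-values in each direction. Their calls did not depend on which single R- or C- array was left out. No R+ or C+ array was left out singly, so dependence on those arrays was not tested.

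In the first direction, Shox2, a homeodomain factor, was near one level in YFP-negative cells, at 2814, 2937 and 2829 in R- and 3831, 3284 and 2945 in C-. It read 342, 523 and 570 in R+ and 19007, 18830 and 16780 in C+ (difference of differences 5.03 ± 0.24, adjusted p = 3.80e-08). Tac1, the substance P precursor, differed by -0.31 ± 0.20 in YFP-negative and -4.70 ± 0.20 in YFP-positive cells (4.39 ± 0.28, adjusted p = 1.13e-06). Mlf1 differed by 0.23 ± 0.15 and -2.73 ± 0.15 (2.96 ± 0.22, adjusted p = 2.96e-06). Neither was called between R- and C-.

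Irs4, an insulin receptor substrate, was higher in R- than in C- (296, 410 and 289 against 45, 97 and 91, 2.00 ± 0.25) and lower in R+ than in C+ (269, 368 and 340 against 2976, 3183 and 3889, -3.33 ± 0.25), a difference of 5.33 ± 0.35 (adjusted p = 1.28e-06). Diras2, a small GTPase gene, had opposite signs too, with 0.60 ± 0.15 and -2.56 ± 0.15 (3.16 ± 0.21, adjusted p = 1.28e-06). The mean of its probe sets gave 1.73 with an adjusted p of 0.0598, and its call between R- and C- ended without R- replicate 1, 2 or 3 or C- replicate 1 or 3.

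In the other direction, Hmx2, a homeodomain factor, was at 45, 32 and 84 in R- and 197, 318 and 178 in C- (-1.96 ± 0.38), and at 3999, 2915 and 3200 in R+ and 194, 58 and 116 in C+ (4.80 ± 0.38). Without C- replicate 2 the adjusted p between R- and C- was 0.0539. The difference of differences was -6.76 ± 0.53 (adjusted p = 5.13e-06). Pdzrn4 differed by -0.43 ± 0.31 and 3.92 ± 0.31 (-4.34 ± 0.43, adjusted p = 6.51e-05), and A930009L07Rik by -0.19 ± 0.16 and 2.67 ± 0.16 (-2.86 ± 0.22, adjusted p = 4.93e-06). The semaphorin receptor Nrp2 differed by -0.24 ± 0.17 and 2.38 ± 0.17 (-2.62 ± 0.23, adjusted p = 2.04e-05), and the GDNF receptor Gfra1 by 0.33 ± 0.14 and 2.51 ± 0.14 (-2.19 ± 0.20, adjusted p = 2.81e-05). Apart from Hmx2 these were not called between R- and C-.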

How the results depend on the processing

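Of 106 named genes called between R- and C-, 43 kept their call in all 22 alternatives, and 0 of the 106 changed sign in any. Without all arrays numbered 3 or all numbered 2, 53 and 51 calls were lost, with the beta-actin covariate 33, without any single array 16 to 24, and with the mean of a gene's probe sets 20. The replicate block lost 0 of the 106 and added 57 others.

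The counts that moved most were these. With the replicate block, 1310 genes were called between R- and C-, 573 higher in R- and 737 higher in C-, and 340 for the difference of differences. With the beta-actin covariate 216 were called in all and 105 higher in C-, and 3 midbrain GABA neuron factors were higher in R-. Higher in C- were 147 with median scaling and 141 with the mean of probe sets. Without one R- or C- array or one replicate number, the count lay between 79 and 362 in all. It lay between 30 and 158 higher in R- and between 49 and 229 higher in C-. For the difference of differences it lay between 27 and 219. Midbrain and isthmus genes higher in R- numbered 4 to 7, and midbrain GABA neuron factors 2 to 6. Single arrays that moved the total by over 1.5 times were R- replicate 3 (198), C- replicate 2 (238) and C- replicate 3 (220), and without R- replicate 1 there were 145 higher in C-. Hox genes higher in C- numbered 12 to 15 throughout. The 6 arrays of R- and C- alone gave 305 calls.

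Limits: 3 arrays a group, a beta-actin ratio that parts the regions, and signals near the offset for many dim genes bound what small or dim differences can show. The alternative that tested all probe sets unfiltered was chosen after seeing the data.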

Other observations

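Further genes called between R- and C- belonged to none of the lists and were chosen after their values were seen. In the rostral direction, Emx2, a homeodomain factor of the developing forebrain, had a mean signal of 429 in R- and 24.3 in C- over 3 arrays each (log2 difference 3.77 ± 0.53 SE, limma adjusted p = 8.12e-04). Six3os1, a non-coding transcript that overlaps Six3 in the annotation, differed by 2.98 ± 0.51 (adjusted p = 0.00378). Crym, which encodes the thyroid hormone binding protein mu-crystallin, averaged 1329 in R- and 408 in C- (1.72 ± 0.27, adjusted p = 0.00217). Nrtn, a ligand of the GDNF family, differed by 1.66 ± 0.32 (adjusted p = 0.0101) and the activin antagonist Fst by 1.53 ± 0.23 (adjusted p = 0.00169).

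In the caudal direction, Lamp5, a membrane protein of some neurons, averaged 2061 in R- and 9688 in C- (-2.23 ± 0.13, adjusted p = 1.03e-07), and Aldoc, a glycolytic aldolase, 256 and 1806 (-2.75 ± 0.21, adjusted p = 1.46e-06). The glycine receptor subunit genes Glra1 (-1.73 ± 0.39, adjusted p = 0.0251) and Glra2 (-1.27 ± 0.16, adjusted p = 3.02e-04) were higher in C-, as was the glycine transporter Slc6a5. Hopx, a homeodomain-only protein, averaged 572 in R- and 2939 in C- (-2.37 ± 0.25, adjusted p = 3.52e-05). The zinc finger genes Zfp503 (-1.59 ± 0.16) and Zfp703 (-1.31 ± 0.19) were both higher in C-, with adjusted p of 3.01e-05 and 8.18e-04. The receptor tyrosine kinase gene Kit averaged 801 in R- and 1957 in C- (-1.29 ± 0.19, adjusted p = 0.00103).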
